A study of Mus musculus with 7 samples.

Results

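The genes described here are 9 genes of fatty acid oxidation: Ppara, Ppargc1a, Cpt1a, Cpt2, Acadm, Acadl, Acadvl, Hadha and Hadhb. They were taken by gene symbol from a table of 21861 rows, and all 9 were found and passed the filter on low counts. The table came from RNA-seq of the retinal pigment epithelium (RPE), the pigmented epithelium behind the photoreceptors, of aged mice. The Old-GFP group (3 libraries) came from mice given an adeno-associated virus (AAV) that carried GFP, and the Old-GSTA4 group (4 libraries) from mice given an AAV that carried GSTA4, a glutathione transferase that detoxifies lipid aldehydes. Both groups were aged and were sampled 12 weeks after the vector, so the control mice had also received a virus. The labels state no age in months, sex, strain, promoter or dose, and they do not say whether each library came from a separate animal, so the p-values measure the spread between these libraries.

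Fatty acid oxidation breaks acyl chains down to acetyl-CoA in the mitochondrial matrix. Long chains enter as carnitine esters through Cpt1a on the outer membrane and Cpt2 on the inner membrane, and are then shortened by chain-length-specific acyl-CoA dehydrogenases (Acadvl, Acadl, Acadm) and by the trifunctional protein (Hadha and Hadhb). The nuclear receptor Ppara and the coactivator Ppargc1a drive transcription of these enzymes. The RPE takes up lipid-rich photoreceptor outer segments every day, burns their fatty acids, and passes ketone bodies to the photoreceptors. None of the 9 genes is itself a ketone body enzyme, so those enzymes were described from a separate list.

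The stretches of DNA before the start sites of some of the members are shown first, from RefSeq on GRCm38.p6 and written 5′ to 3′. In the main scaling, Cpt2 and Ppargc1a were the members whose groups did not overlap, both higher in Old-GSTA4, as were 6.44% of all genes. As shares of library totals, Ppargc1a overlapped, while Cpt2 was higher and Acadm lower without overlap. Hadha and Hadhb are divergent neighbours whose start sites face away from a common stretch. Capitals mark 3 short motifs on either strand: AGGTCA, the hexamer bound by nuclear receptors; TGACG, the core of the cyclic AMP response element; and GGGCGG, the GC box.
Cpt2, the 250 bases before the start on the minus strand of chr4:107923590-107923839: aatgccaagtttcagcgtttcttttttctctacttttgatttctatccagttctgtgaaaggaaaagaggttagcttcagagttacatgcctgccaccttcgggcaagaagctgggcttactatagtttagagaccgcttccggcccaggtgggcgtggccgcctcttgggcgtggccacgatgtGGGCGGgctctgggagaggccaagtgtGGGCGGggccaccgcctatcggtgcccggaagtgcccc
Ppargc1a, the 250 bases before the start on the minus strand of chr5:51567726-51567975: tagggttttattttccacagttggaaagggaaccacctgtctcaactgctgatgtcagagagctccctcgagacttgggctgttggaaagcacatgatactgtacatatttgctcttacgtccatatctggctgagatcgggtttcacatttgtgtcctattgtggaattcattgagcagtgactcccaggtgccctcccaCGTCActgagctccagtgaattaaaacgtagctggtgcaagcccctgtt
Hadha to Hadhb, the plus strand between the facing starts, chr5:30154981-30155252: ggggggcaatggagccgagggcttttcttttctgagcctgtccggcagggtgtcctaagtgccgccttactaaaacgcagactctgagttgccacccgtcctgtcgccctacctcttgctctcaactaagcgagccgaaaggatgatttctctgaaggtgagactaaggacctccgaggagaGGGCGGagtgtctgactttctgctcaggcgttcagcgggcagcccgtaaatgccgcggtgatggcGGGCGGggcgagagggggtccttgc

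The Cpt2 stretch held 2 GC boxes and neither of the other motifs, with a GC content of 56.8%. The Ppargc1a stretch held 1 TGACG match, no GC box, and a GC content of 48%. In RefSeq 272 bases lie between the Hadha and Hadhb starts, and this stretch held 2 GC boxes and 18 CpG dinucleotides. The GENCODE M21 annotation begins Hadha at base 30155162 and Hadhb at base 30155248, both inside that stretch. Searched over 300 bases (250 before to 50 after each start), AGGTCA was found for 3 of the 9 genes (Cpt1a, Acadm and Acadvl) and for 16.3% of 32851 promoters. TGACG was found for Ppara, Ppargc1a and Acadm and for 20.8% of promoters, and GGGCGG for 6 of the 9 and for 35.7%. The consensus peroxisome proliferator response element, that hexamer repeated with 1 base between the copies, was found in none of the 9 windows and in 0.0396% of all promoters. The oestrogen-related receptor element TCAAGGTCA, which also contains AGGTCA, was in none of the 9 windows and in 0.423% of promoters. A match is a string of letters and not a measured site.

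Library totals ranged from 15329181 to 28998964 counts, and 3 counts, taken as the lowest detectable level, corresponded to 0.111 to 0.176 CPM (read counts relative to library size, scaled by the trimmed mean of M-values, TMM). No molecular identifiers are mentioned, so such floors cover counting error only. All 25 RPE markers listed had counts, led by Rpe65 with 36798 to 269808 counts per library. The human transgene row hGSTA4 had 1 to 3 counts in the Old-GFP libraries and 4209, 5239, 45 and 1184 counts in Old-GSTA4 replicates 1 to 4. The GFP row d2EGFP had 99, 3970 and 2361 counts in Old-GFP and 163, 64, 7 and 26 in Old-GSTA4, so the GFP row did not separate the groups. Old-GFP replicate 3 stood apart: its mean correlation with the others was 0.838, against 0.910 to 0.926 for the other 6, its TMM factor was 1.36, against 0.868 to 1.05, and its counts on olfactory and vomeronasal receptor genes reached 826 CPM of the total, against 28.8 to 117. Old-GSTA4 replicate 2 held 12.6% of its counts on lens fibre genes, against 0.464% to 2.85% in the other 6. Rod markers took 1.89%, 3.30% and 6.59% of counts in Old-GFP replicates 1 to 3 and 0.963% to 1.73% in Old-GSTA4, so the groups did not overlap, and RPE markers took 3.97% to 8.23% and 6.45% to 11.1%. Of the rod markers 20 of 21 had fold changes below 0, with a median of -1.16 on the log2 scale, and of the RPE markers 20 of 25 had fold changes above 0, with a median of 0.67. Most cone, macrophage and endothelial markers had fold changes below 0 (10 of 10, 13 of 14 and 10 of 11). Lens fibre and erythrocyte markers were all above 0 (12 of 12 and 6 of 6), and Mueller glia, fibroblast and melanocyte lists were mixed (6 of 10, 5 of 10 and 2 of 5 above 0). As summed shares of counts the groups overlapped for each of these lists. Endothelial markers took 0.0042%, 0.0066% and 0.0239% in Old-GFP replicates 1 to 3 and 0.0041% to 0.0062% in Old-GSTA4. Macrophage markers took 0.0743% to 0.103% and 0.0674% to 0.0875%, and cone markers 0.0443% to 0.150% and 0.0259% to 0.0470%. Y-linked genes took 0.0287% to 0.0459% of counts in Old-GFP replicate 1 and Old-GSTA4 replicates 3 and 4, and at most 0.000256% in the other 4 libraries, so both groups held libraries of either kind. Skeletal muscle and adipocyte markers took at most 0.0122% and 0.0031% of counts.

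Most of the 9 genes had higher mean levels in Old-GSTA4, and Cpt2 had the largest fold change among them. Fold changes were above 0 on the log2 scale for 7 of the 9, the exceptions being Ppara and Acadm, against 44.6% of all 15075 genes tested. The median over the 9 genes was 0.33, against -0.07 over all genes tested. With edgeR's quasi-likelihood p-values, adjusted over all genes by the Benjamini-Hochberg method, no member passed the threshold of 0.05, and the test called 0 genes in all, a background of 0%. At an unadjusted p-value under 0.05 there was 1 member, Cpt2, of 9. This share, 11.1%, was near that of all genes, 11.9%. DESeq2 called 1 of the 9, also Cpt2, against a background of 1.35%, and limma-voom called 0. Limma-voom with robust variance estimates, a setting chosen after seeing the data, called Cpt2, against 0.968% of all genes.

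**Figure D1:**
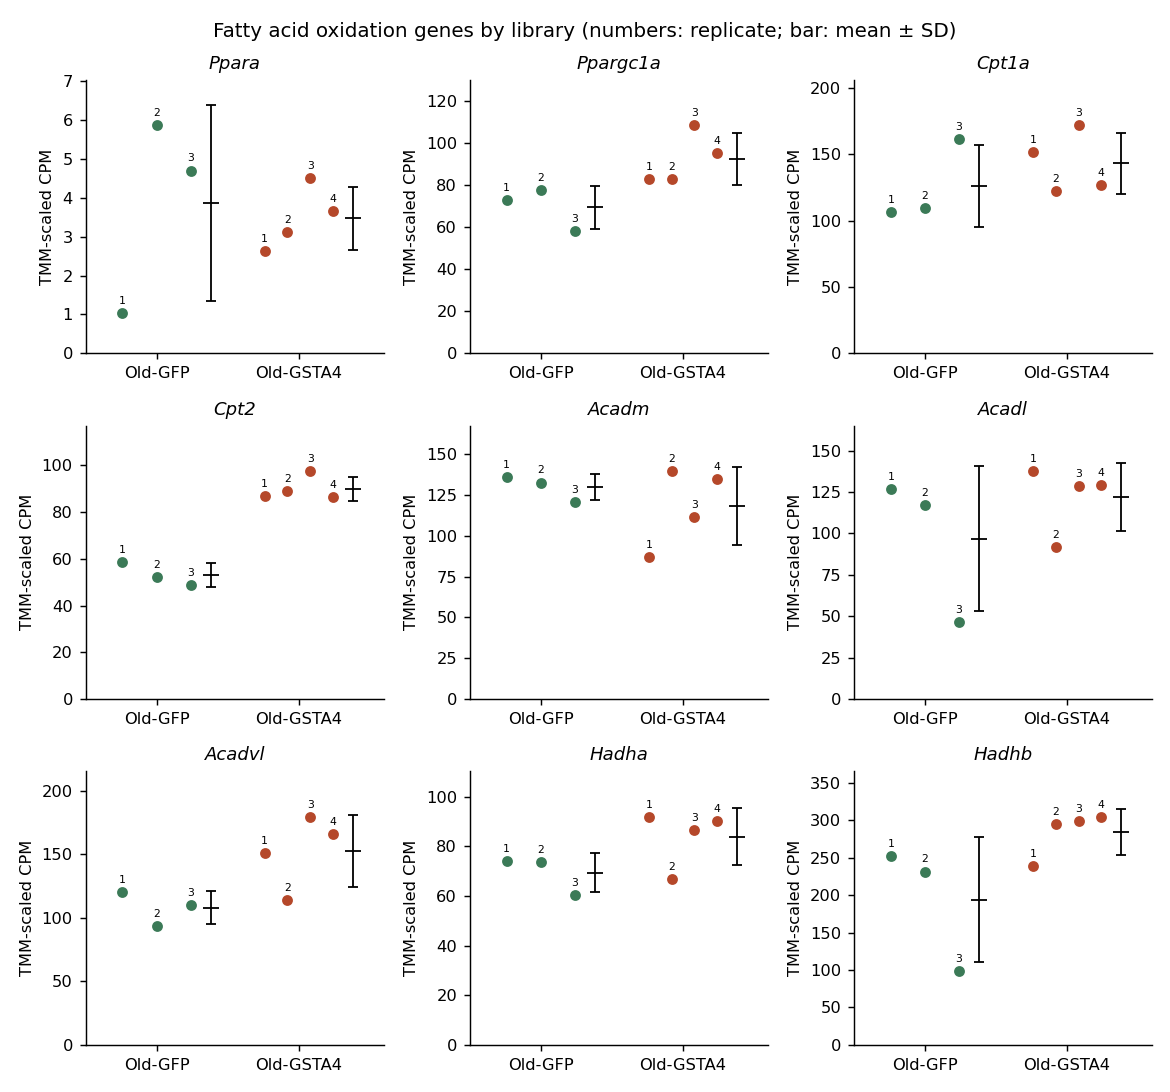
TMM-scaled CPM (vertical axes, from 0) of the 9 genes in each library, with replicate numbers above the points, Old-GFP in green and Old-GSTA4 in red, and the mean ± SD of each group as a black bar. In the Cpt2 panel the 4 Old-GSTA4 libraries lie between 86.3 and 97.5 CPM, above all Old-GFP libraries, whereas in Acadl and Hadhb the low Old-GFP mean rests on replicate 3.

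Among the regulators, Ppara, the receptor that senses fatty acids, had the lowest level of the 9 genes. It was at 1.02, 5.86 and 4.70 CPM in Old-GFP replicates 1 to 3 and at 2.63, 3.12, 4.52 and 3.65 CPM in Old-GSTA4 replicates 1 to 4, from 22 to 152 counts per library. The Old-GSTA4 libraries all lay inside the range of the Old-GFP libraries. The fitted log2 difference was -0.15 ± 0.59 (SE; edgeR adjusted p = 0.939), and its sign changed with several settings.

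Ppargc1a, the coactivator that links Ppara and the oestrogen-related receptors to mitochondrial gene expression, was at 73.1, 77.5 and 58.0 CPM in Old-GFP and at 82.7, 82.7, 108 and 95.5 CPM in Old-GSTA4. The lowest Old-GSTA4 library was above the highest Old-GFP library, a separation seen for 6.44% of all genes in this direction and for 5.61% in the other. The mean was 1.33-fold higher, with a log2 fold change of 0.41 ± 0.21 (SE; edgeR adjusted p = 0.463). With the share of rod markers in the model the log2 fold change was 0.17 ± 0.28 (SE). With the share of RPE markers, a setting chosen after seeing the data, it was 0.19 ± 0.21 (SE). As a share of the library total the groups overlapped, with 72.2, 81.3 and 78.8 CPM against 79.8, 74.8, 94.2 and 89.3 CPM.

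The carnitine palmitoyltransferases differed from each other. Cpt1a, the malonyl-CoA-sensitive entry step, was at 107, 110 and 162 CPM in Old-GFP and at 152, 122, 172 and 127 CPM in Old-GSTA4. Old-GFP replicate 3 lay above 3 of the 4 Old-GSTA4 libraries, and the groups overlapped. On the log2 scale the difference was 0.19 ± 0.24 (SE; edgeR adjusted p = 0.781). With library totals in place of TMM it was -0.16, and without Old-GFP replicate 3 it was 0.41.

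Cpt2, which turns acylcarnitine back into acyl-CoA in the matrix, was at 58.6, 52.2 and 48.6 CPM in Old-GFP and at 86.6, 89.1, 97.5 and 86.3 CPM in Old-GSTA4. All 4 Old-GSTA4 libraries lay above all 3 Old-GFP libraries, and the spread within a group was small, with an SD of 5.06 CPM over 3 libraries and of 5.21 CPM over 4. The mean was 1.69-fold higher, with a log2 fold change of 0.76 ± 0.19 (SE; edgeR adjusted p = 0.363). In DESeq2 the adjusted p-value was 0.0192 and Cpt2 passed, and in limma-voom with quality weights it was 0.0589.

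The difference in Cpt2 was in the same direction under every setting tried, from 0.47 with library totals to 0.84 without Old-GFP replicate 1. As a share of the library total, Cpt2 was at 58.0, 54.7 and 66.1 CPM against 83.7, 80.6, 84.6 and 80.7 CPM, still without overlap, which 2.02% of all genes showed in this direction. With the rod share in the model its log2 fold change was 0.62, and with the RPE share, a setting chosen after seeing the data, it was 0.66 (edgeR adjusted p = 0.361 and 0.716). Because the rod shares of the groups did not overlap, group and rod share cannot be told apart in any fit with that covariate. Fewer cells of a type and less RNA per cell cannot be told apart in bulk tissue.

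The Cpt1a:Cpt2 ratio of counts, which does not depend on library scaling, was 1.82, 2.10 and 3.32 in Old-GFP and 1.76, 1.37, 1.76 and 1.47 in Old-GSTA4. Every Old-GSTA4 library lay below every Old-GFP library, the nearest being replicate 1 of the Old-GFP group. The mean log2 ratio was 1.22 ± 0.45 (SD, n = 3) against 0.66 ± 0.18 (SD, n = 4), a difference of -0.56. A two-sided exact permutation test of the means gave p = 0.0571, or 0.171 adjusted over the 3 ratios examined. With 35 relabellings and the smaller tail doubled, 0.0571 was the lowest unadjusted p-value this test could give. No ratio could therefore have reached the threshold set for the gene tests. The difference was -0.31 without Old-GFP replicate 3.

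The acyl-CoA dehydrogenases did not share a pattern. Acadvl, which acts on the longest chains at the inner membrane, was at 120, 94.0 and 110 CPM in Old-GFP and at 151, 114, 180 and 166 CPM in Old-GSTA4. Only Old-GSTA4 replicate 2, the library rich in lens transcripts, fell within the Old-GFP range. The log2 fold change was 0.50 ± 0.23 (SE; edgeR adjusted p = 0.427), and it was 0.20 with library totals. In GENCODE M21, 1151 exon bases of Acadvl (42.9%) are shared with Dvl2 on the opposite strand; Dvl2 had 1649 counts over the 7 libraries, and since the use of strand in counting is not stated, reads from the shared bases cannot be assigned to either gene.

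Acadl, the long-chain dehydrogenase, was at 127, 117 and 46.7 CPM in Old-GFP and at 138, 91.6, 129 and 129 CPM in Old-GSTA4. The low Old-GFP mean rested on replicate 3. The fitted log2 difference was 0.33 ± 0.34 (SE, edgeR adjusted p = 0.721), and it was -0.00 without that library. It was -0.40 ± 0.39 (SE) with the rod share in the model and -0.21 ± 0.23 (SE) with the RPE share.

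Acadm, the medium-chain dehydrogenase, was at 136, 133 and 121 CPM in Old-GFP and at 87.3, 140, 111 and 135 CPM in Old-GSTA4. It was one of the members without a higher mean in Old-GSTA4, and the groups overlapped. On the log2 scale the difference was -0.13 ± 0.22 (SE; edgeR adjusted p = 0.839). As a share of library totals it was at 134, 139 and 164 CPM against 84.3, 126, 96.7 and 126 CPM, lower in every Old-GSTA4 library, as were 12.0% of all genes on that scale. The Acadl:Acadm log2 ratio was -0.55 ± 0.71 (SD, n = 3) and 0.05 ± 0.53 (SD, n = 4), a difference within the spread of libraries (exact permutation test, two-sided, p = 0.286, adjusted 0.343).

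Hadha and Hadhb encode the alpha and beta subunits of the mitochondrial trifunctional protein, which hydrates, oxidises and cleaves long acyl chains. Hadha was at 73.9, 73.9 and 60.4 CPM in Old-GFP and at 91.8, 67.0, 86.5 and 90.2 CPM in Old-GSTA4. The groups overlapped only through Old-GSTA4 replicate 2. Its log2 fold change was 0.27 ± 0.20 (SE; edgeR adjusted p = 0.607), and it was -0.01 with library totals. With the rod share in the model the log2 fold change of Hadha was 0.10, and with the RPE share 0.05. Of its exon bases 75 (0.859%) are shared with Garem2 on the opposite strand, which had 300 counts in all.

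Hadhb was at 253, 232 and 98.3 CPM in Old-GFP and at 239, 296, 300 and 305 CPM in Old-GSTA4. Here Old-GFP replicate 3 was far below the other 6 libraries, and Old-GSTA4 replicate 1 fell between the other Old-GFP libraries. The log2 fold change was 0.55 ± 0.33 (SE, edgeR adjusted p = 0.513). It was 0.24 without Old-GFP replicate 3 and -0.28 ± 0.32 (SE) with the rod share in the model.

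Although in RefSeq the genes start on either side of the stretch printed above, their counts did not keep a fixed ratio. Hadha:Hadhb was 0.292, 0.319 and 0.615 in Old-GFP and 0.384, 0.227, 0.289 and 0.296 in Old-GSTA4. The log2 ratios were -1.38 ± 0.59 (SD, n = 3) and -1.77 ± 0.31 (SD, n = 4), and their difference of -0.39 was within the spread of libraries (exact permutation test, two-sided, p = 0.343, adjusted 0.343). Without Old-GFP replicate 3 the difference was -0.06.

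**Figure D2:**
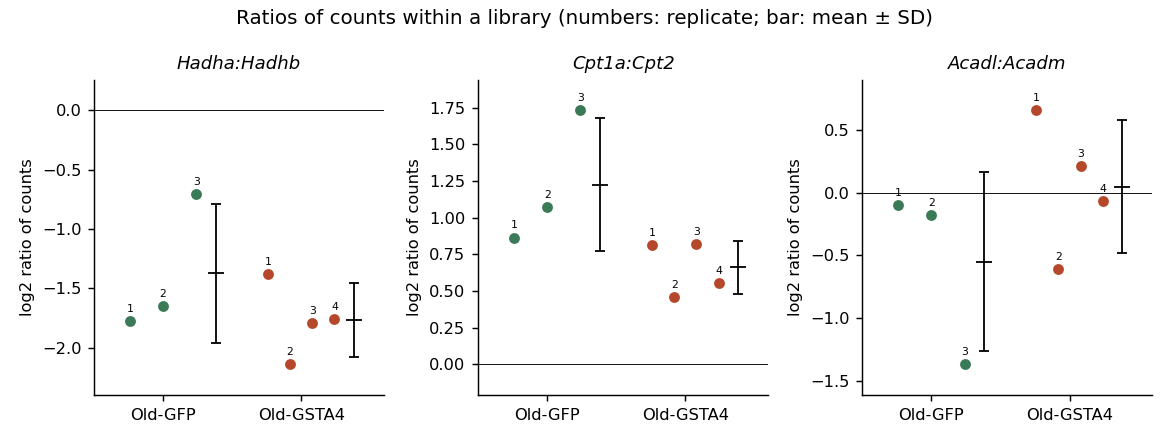
Log2 ratios of raw counts within each library (vertical axis) for the subunit, carnitine shuttle and dehydrogenase pairs, with replicate numbers and the mean ± SD of each group. The Cpt1a:Cpt2 panel shows no overlap between groups, and in all 3 panels Old-GFP replicate 3 is the farthest from the other libraries of its group.

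Several fold changes depended on scaling and on the composition of the libraries. When libraries were scaled by their totals, the median over all genes shifted from -0.07 to -0.37 on the log2 scale, and 5 of the 9 members were above 0, but 7 of 9 were above the median of all genes on either scale. Without Old-GFP replicate 3, 6 of 9 were above 0, with a median of 0.24, and without Old-GSTA4 replicate 2, 7 of 9 were, with a median of 0.46. With the rod share in the model 6 of 9 were above 0, with a median of 0.17. In that fit 50.7% of all genes were above 0, against 44.6% in the fit without it. The rod share did not overlap between the groups, so such a fit cannot separate group from rod share.

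**Figure D3:**
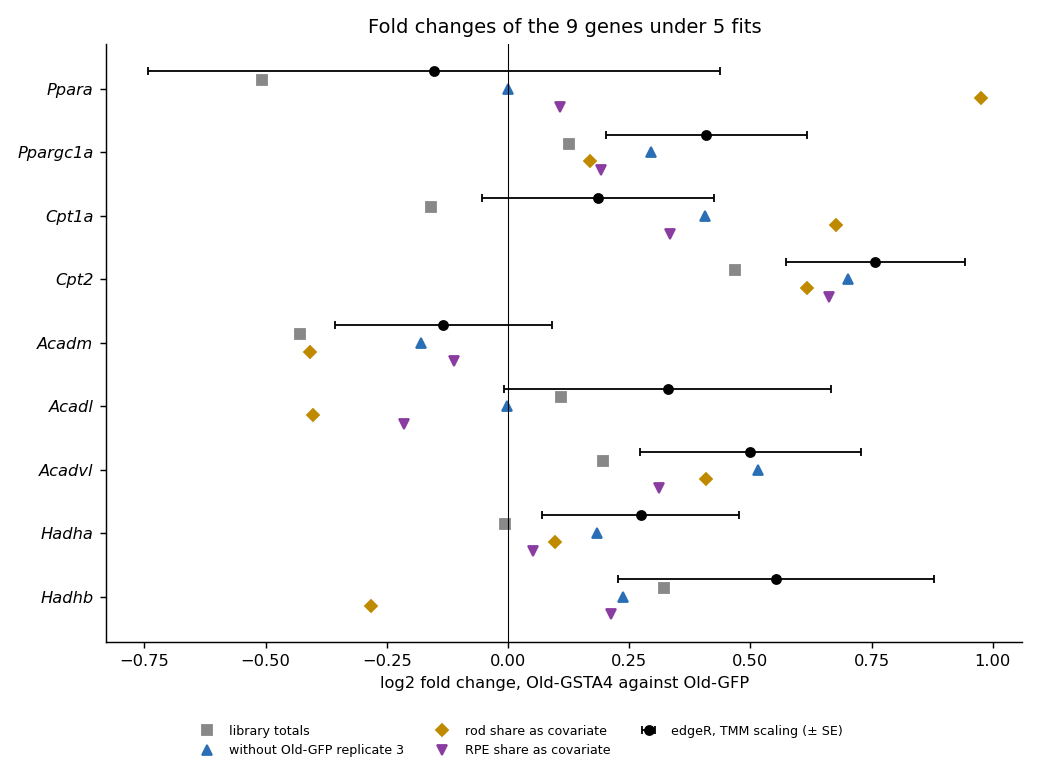
Log2 fold changes of Old-GSTA4 against Old-GFP (horizontal axis) for the 9 genes in the TMM-scaled edgeR fit (black, ± SE) and in 4 other fits. Cpt2, Ppargc1a and Acadvl lie above 0 in all 5 fits. Acadl and Hadhb lie at -0.40 and -0.28 once the rod share is modelled, with SEs of 0.39 and 0.32 that are not drawn.

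The summed level of the 9 genes was 949, 894 and 709 CPM in Old-GFP replicates 1 to 3 and 1032, 1005, 1188 and 1137 CPM in Old-GSTA4 replicates 1 to 4. As a share of all counts it was 0.0939%, 0.0938% and 0.0964% against 0.0996%, 0.0909%, 0.103% and 0.106%, and on that scale the groups overlapped. Within each group the summed TMM-scaled CPM followed the same order as the share of RPE markers. That share was 8.23%, 6.94% and 3.97% in Old-GFP and 9.30%, 6.45%, 11.1% and 9.92% in Old-GSTA4. With both as shares of all counts the orders differed. Old-GFP replicate 3 then had the highest share of its group on the 9 genes, 0.0964%, but the lowest on RPE markers. Old-GSTA4 replicate 4 lay above replicate 3 on the 9 genes but below it on RPE markers. In the 4 Old-GSTA4 libraries the summed CPM ran in the reverse order of the transgene. There hGSTA4 was at 221, 251, 2.64 and 43.6 CPM, so replicate 3 had the least hGSTA4 and the highest sum. Replicate 2 had the most hGSTA4 and the lowest sum, and 12.6% of its counts lay on lens fibre genes. As a share of all counts replicate 4 was highest, at 0.106%, against 0.103% in replicate 3, so the full order held only with TMM scaling. The order over 4 libraries is a description and was not tested. The part of cell composition in the summed level was not tested.

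**Figure D4:**
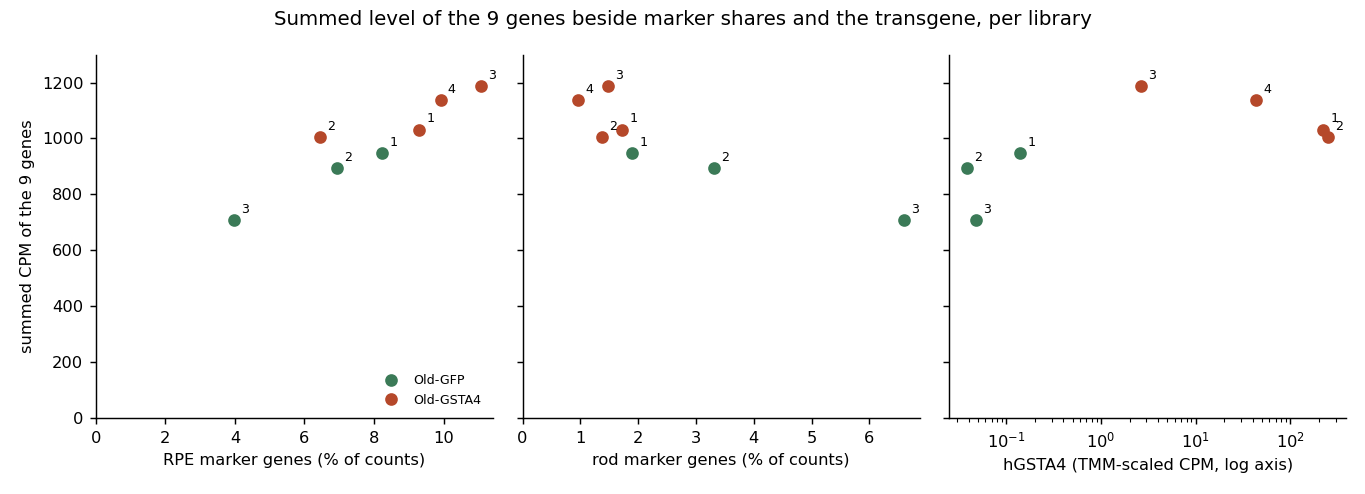
Summed TMM-scaled CPM of the 9 genes (vertical axis, from 0) against the share of counts on RPE markers, on rod markers, and against hGSTA4 CPM on a log axis, 1 point per library with its replicate number. The hGSTA4 values of the Old-GFP libraries rest on 1 to 3 counts each, and Old-GSTA4 replicate 3, at 2.64 CPM of hGSTA4, has the highest sum, 1188 CPM.

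Levels were compared between genes as CPM per kilobase of the principal transcript in GENCODE M21. In Old-GFP, Hadhb was highest at 94.9 ± 40.9 (SD, n = 3), then Acadm at 63.4 ± 3.88, Acadl at 50.5 ± 22.8 and Acadvl at 49.8 ± 6.09; the ranges of 1 SD of these neighbours overlapped. Cpt1a at 29.2 ± 7.14 and Cpt2 at 22.4 ± 2.13 also overlapped, while Hadha at 17.3 ± 1.94, Ppargc1a at 10.8 ± 1.59 and Ppara at 1.13 ± 0.74 each lay below the gene before it by more than the spread. In Old-GSTA4 the order of the shuttle enzymes was the other way, with Cpt2 at 37.9 ± 2.20 (SD, n = 4) and Cpt1a at 33.2 ± 5.36, which overlapped. Hadhb was at 139 ± 14.9, clear of Acadvl at 70.5 ± 13.1, Acadl at 63.5 ± 10.7 and Acadm at 57.8 ± 11.8, which overlapped one another. The order depended on the gene model: per kilobase of all merged exons Hadhb was at 29.5 in Old-GFP, below Acadl at 48.3.

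The members differed in how closely they followed one another over the 7 libraries, given here as a description. Ppargc1a had a Pearson correlation of 0.970 with the mean of the other members, Cpt2 one of 0.771 and Hadha one of 0.758. Cpt1a was at 0.103, Ppara at -0.11 and Acadm at -0.31, and without Old-GFP replicate 3 Cpt1a was at 0.730. Among all other genes tested, the 5 whose log2 CPM was most like the mean profile of the members were Dhrs4, Phtf2, Ifnar2, Gdf11 and Galk1, with Pearson correlations of 0.992, 0.992, 0.989, 0.985 and 0.984 as a description. Without Old-GFP replicate 3 these were 0.971 to 0.992. The libraries share a kit and differ in their composition of cell markers, and the genes were picked for the likeness.

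Beyond the 9 genes, 87 other genes of fatty acid and ketone metabolism and its regulation were listed by role, of which 81 were tested. None had an edgeR adjusted p-value under 0.05, and 10 were higher and 4 lower at an unadjusted p-value under 0.05 (backgrounds of 5.27% and 6.63% of all genes). DESeq2 called 1 of the 80 it tested, Slc27a1, near its background of 1.35% of all genes. Fold changes were above 0 for 55 of the 81, with a median of 0.23. With library totals 40 were above 0 and 60 were above the median of all genes, the same number as with TMM, and with the rod share in the model 40 were above 0.

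In fatty acid uptake, activation and the carnitine shuttle, 3 of 13 tested genes were higher and 1 lower at an unadjusted p-value under 0.05. The backgrounds were 5.27% and 6.63% of all genes, and the median log2 fold change of the list was 0.03. Slc27a1, a fatty acid transport protein, was at 176, 163 and 151 CPM in Old-GFP and at 339, 219, 413 and 334 CPM in Old-GSTA4. Its groups did not overlap, as was so for 6.44% of all genes in this direction. Its log2 fold change was 1.00 ± 0.26 (SE; adjusted p = 0.363 in edgeR and 0.0201 in DESeq2). With library totals its groups overlapped and the log2 fold change was 0.71. Acsl6, an acyl-CoA synthetase and the most abundant gene of the list in CPM, had a log2 fold change of 0.77 ± 0.30 (SE), the carnitine transporter Slc22a5 one of 0.75 ± 0.28 (SE), or 0.16 with the rod share in the model, and the fatty acid binding protein Fabp3 one of -1.06 ± 0.41 (SE), and each of the 3 had overlapping groups, although Fabp3 was lower in every Old-GSTA4 library as a share of library totals. Cpt1b, the muscle form of the outer enzyme, had 6 counts in all.

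Of the other mitochondrial enzymes of the pathway, 16 of 17 had fold changes above 0, with a median of 0.52, and all 17 were above the median of all genes. The median was 0.23 without Old-GFP replicate 3, with 16 of 17 above 0, and 0.25 with library totals, with 13 of 17 above 0. With the rod share in the model 7 of 17 were above 0, with a median of -0.11, and with the RPE share 14 of 17 were, with a median of 0.13. Acads, the short-chain dehydrogenase, was at 7.31, 12.8 and 5.37 CPM in Old-GFP and at 22.4, 8.63, 22.6 and 23.6 CPM in Old-GSTA4, with a log2 fold change of 1.19 ± 0.43 (SE; edgeR adjusted p = 0.374), and 0.45 with the RPE share in the model. Hadh, the dehydrogenase for shorter hydroxyacyl chains, separated the groups at 77.0, 90.8 and 65.7 CPM against 103, 102, 120 and 125 CPM, as did 6.44% of all genes in this direction. Its log2 fold change was 0.53 ± 0.21 (SE). With library totals its groups overlapped and the log2 fold change was 0.25. Acad10 had a log2 fold change of 0.68 ± 0.27 (SE), and Acaa2, the matrix thiolase and most abundant of these genes in CPM, one of 0.52 ± 0.32 (SE).

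Peroxisomes shorten very long and branched chains before they reach mitochondria. Of 15 genes in this list, 13 had fold changes above 0, with a median of 0.36, and 6 separated the groups, all higher in Old-GSTA4, against 6.44% of all genes. With the rod share in the model 11 of 15 were above 0, with a median of 0.23, with the RPE share 11 of 15 were, with a median of 0.18, and with library totals 10 of 15 were, with a median of 0.07. As shares of library totals 1 of the 15 separated them, Abcd3, which carries acyl-CoA into peroxisomes, against 2.02%. Hsd17b4, the multifunctional enzyme, was at 55.8, 71.3 and 48.5 CPM against 83.9, 79.9, 91.0 and 89.8 CPM, with a log2 fold change of 0.56 ± 0.20 (SE; edgeR adjusted p = 0.375), and 0.28 with library totals. Decr2, a dienoyl-CoA reductase, had a log2 fold change of 0.48 ± 0.20 (SE), and Scp2, the carrier and thiolase that was most abundant here in CPM, one of 0.30 ± 0.32 (SE).

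For the making, transport and use of ketone bodies, 6 of 7 genes had fold changes above 0, with a median of 0.38, and none had an unadjusted p-value under 0.05. With library totals 4 of the 7 were above 0, and with the rod share in the model 4 of 7 were. Slc16a1, a transporter of lactate and ketone bodies and the most abundant of these genes in CPM, was at 615, 598 and 332 CPM in Old-GFP and at 1067, 585, 932 and 706 CPM in Old-GSTA4. Old-GSTA4 replicate 2 lay below 2 of the Old-GFP libraries. Its log2 fold change was 0.68 ± 0.33 (SE; edgeR adjusted p = 0.446), and it was 0.37 with the rod share in the model and 0.22 with the RPE share.

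Among 21 regulators, 1 was higher and 3 were lower at an unadjusted p-value under 0.05 (backgrounds of 5.27% and 6.63% of all genes). The median log2 fold change was -0.03. Nrip1, a corepressor of nuclear receptors, was at 30.4, 25.4 and 31.3 CPM in Old-GFP and at 16.5, 15.4, 16.9 and 21.0 CPM in Old-GSTA4, without overlap. Its log2 fold change was -0.73 ± 0.22 (SE; edgeR adjusted p = 0.363). Esrrg, an oestrogen-related receptor, also separated the groups, at 31.0, 33.4 and 60.4 CPM against 27.3, 26.7, 15.5 and 14.2 CPM. Its log2 fold change was -0.99 ± 0.34 (SE), but -0.62 without Old-GFP replicate 3 and -0.12 with the rod share in the model. Of all genes 5.61% separated the groups in this direction. As shares of library totals Nrip1 and Esrrg also did so, as did 12.0% of all genes. Ppargc1b, the paralogue of Ppargc1a, was at 6.33 to 27.9 CPM in the 3 Old-GFP libraries, highest in replicate 3, and at 4.00, 5.80, 7.52 and 10.2 CPM in Old-GSTA4, with overlap. The difference was -1.22 ± 0.50 (SE) on the log2 scale, but -0.57 without Old-GFP replicate 3 and -0.05 with the rod share in the model. The AMP kinase subunits Prkaa2 and Prkaa1, the latter the most abundant regulator in CPM, had log2 fold changes of 0.91 ± 0.34 (SE) and 0.23 ± 0.29 (SE). The lowest Old-GSTA4 library for Prkaa2, at 30.4 CPM, lay just above the highest Old-GFP library, at 29.8 CPM, and as a share of library totals the groups overlapped. The log2 fold change of Prkaa2 was 0.28 with the rod share in the model.

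Of 16 classic Ppara target genes, 11 were tested, and 5 had fold changes above 0, with a median of -0.09. Only 1 was higher at an unadjusted p-value under 0.05, Angptl4 (background of 5.27% of all genes). Angptl4, an inhibitor of lipoprotein lipase, was at 7.82, 4.32 and 8.54 CPM in Old-GFP and at 18.4, 7.48, 18.8 and 13.6 CPM in Old-GSTA4, with overlap through replicate 2. Its log2 fold change was 1.08 ± 0.41 (SE; edgeR adjusted p = 0.375). Ucp2, a mitochondrial carrier and the most abundant of these genes in CPM, was at 149, 280.4 and 269 CPM in Old-GFP and at 243, 186, 229 and 219 CPM in Old-GSTA4, all inside the Old-GFP range, with a log2 fold change of -0.09 ± 0.27 (SE; edgeR adjusted p = 0.921). Cyp4a10, a standard liver readout of Ppara, had 1 count in all 7 libraries together.

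**Figure D5:**
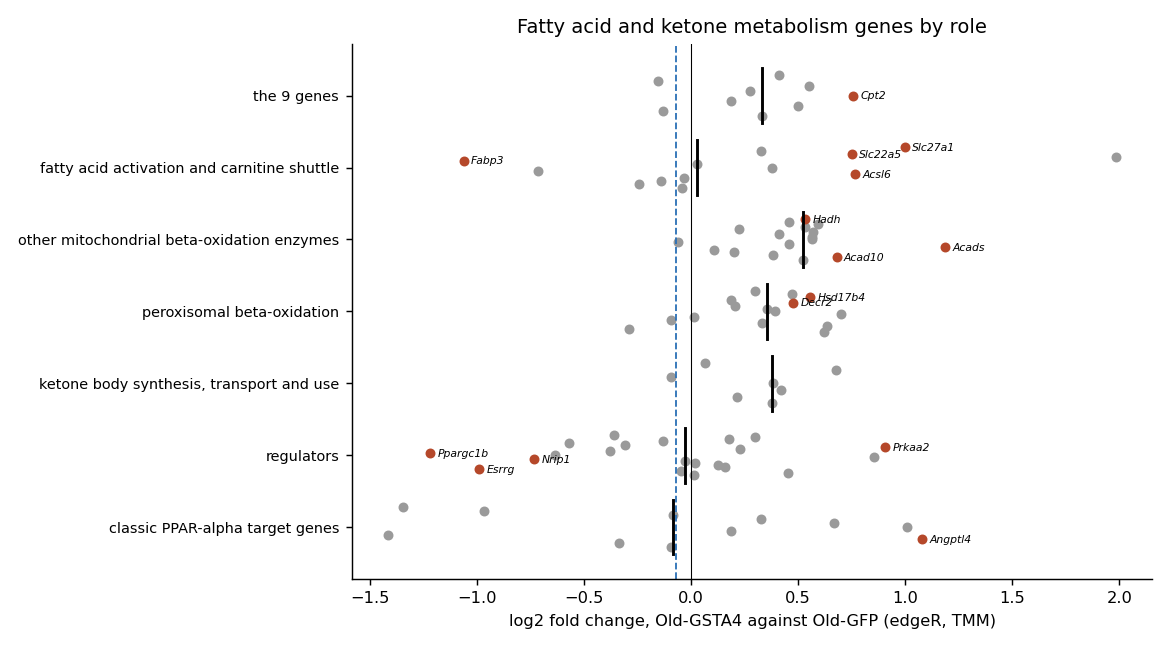
Log2 fold changes of Old-GSTA4 against Old-GFP (horizontal axis, TMM-scaled edgeR fit), 1 point per tested gene by role, with red and named points at an unadjusted p-value under 0.05, black lines at list medians and the blue dashed line at the median of all genes, -0.07. The medians of the mitochondrial, peroxisomal and ketone lists lie at 0.52, 0.36 and 0.38, and that of the regulators at -0.03. A gene that belongs to several lists is drawn in each.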

How the data were processed

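The authors deposited raw read counts per gene symbol, 1 column per library, and STAR 2.7.1a and featureCounts 1.6.2 are named in the submitters' processing notes, with GRCm38/mm10 and a human build. Annotation, strand setting and multi-mapping rule are not given in the sources used here. Among the symbols 24 were repeated, and of each the row with most counts bears the symbol here while the others bear a suffix. Libraries were made with a template-switching kit from amplified cDNA, per the labels' protocols, and columns were matched to libraries by name. Replicates carry the numbers of the titles.

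Counts were fitted with edgeR 4.0.16 (R 4.3.3): quasi-likelihood test, group as the only factor, TMM scaling, default expression filter, robust dispersions, Benjamini-Hochberg adjustment over 15075 genes, threshold 0.05. Alternatives used DESeq2 1.42.0 and limma 3.58.1 (voom), other scalings, filters, covariates and a replicate block. The test was tried on simulated counts with the same dispersion for all genes in a run and no library that stood apart. That trial therefore does not show how the test behaves on these libraries. Log2 CPM used a prior count of 2. Coordinates are those of RefSeq and GENCODE M21 on GRCm38. The members and the lists were chosen with earlier results of these data known. Named genes were all members, in each role list up to 4 genes with the smallest unadjusted p-values under 0.05 and the one with the highest CPM, and the 5 genes most like the members; Abcd3, Cpt1b and Cyp4a10 were named after their values were seen. The 13 marker lists covered RPE, rod, cone, Mueller glia, macrophage, endothelium, fibroblast, melanocyte, lens, muscle, adipocyte, erythrocyte and Y-linked genes. Some listed items are not reported here.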

Additional observations from a re-analysis of the deposited data

Results flagged for a closer look

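In 31 results examined for a library that stood apart from the other 3 of the Old-GSTA4 group, 3 did, where chance gives about 5%. Hadhb in Old-GSTA4 replicate 1 was at 239 CPM, against 296 to 305 in the other 3, so the gap to its nearest neighbour was 0.864 of the range. Acads in Old-GSTA4 replicate 2 was at 8.63 CPM, against 22.4 to 23.6, a gap of 0.922. Prkaa2 in the same library was at 57.8 CPM, against 30.4 to 33.5, a gap of 0.886. That library held 12.6% of its counts on lens fibre genes, and the part of these in the Acads and Prkaa2 values was not tested.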

How the results depend on the processing

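Robust limma-voom and the RPE share were added after seeing the data. The count of members past the adjusted threshold, 0 in edgeR's test, was 1 with DESeq2 and 1 with robust limma-voom and 0 under the other settings, with 1 or 2 members at an unadjusted p-value under 0.05 throughout. The count of other pathway genes was 1 with DESeq2 and 2 with robust limma-voom, against 1.35% and 0.968% of all genes. The count over all genes was 201 with DESeq2, 146 with robust limma-voom, 1 with a replicate block by titles, 1 with a replicate block by library names, 1 with the rod share, and 0 to 1 with a library left out. The adjusted p-value of Cpt2 passed with DESeq2 (log2 fold change 0.78, 0.0192) and with robust limma-voom (0.74, 0.0483), and ranged to 0.865 with the replicate block by titles, where the log2 fold change was 0.78. The sign changed for Ppara with the replicate block by titles (0.10) or library names (0.17), the rod share (0.98), the Y-linked covariate (0.0788), the RPE share (0.11) and without Old-GFP replicate 2 (-0.60 to 0.29 with a library left out). It changed for Cpt1a (-0.16) and Hadha (-0.00675) with library totals, for Acadl with the rod share (-0.40), the RPE share (-0.21) and without Old-GFP replicate 3 (-0.00136 to 0.57 with a library left out), for Hadhb with the rod share (-0.28), and for Acadm without Old-GSTA4 replicate 1 (0.00729; -0.21 to 0.00729 with a library left out). Ppargc1a, Cpt2 and Acadvl kept their sign under all settings tried. The values with the rod share carry the limit given above, that group and rod share cannot be told apart. With a library left out the differences in log2 ratio ranged from -0.59 to -0.06 for Hadha:Hadhb, from -0.74 to -0.31 for Cpt1a:Cpt2 and from 0.19 to 0.82 for Acadl:Acadm. Equal numbers did not pair the libraries: correlations of deviations ranged from -0.09 to 0.01 by titles and from -0.13 to 0.01 by library names. Ppara, at 22 to 152 counts per library, had the least depth of the 9 genes, and the part of depth in its changes of sign was not tested. The cause of the differences between tests was not tested.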

Other observations

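Fabp5, a fatty acid binding protein of the uptake list that was singled out after its values were seen, was at 1173 CPM in Old-GSTA4 replicate 2 and at 97.7, 47.6 and 91.1 CPM in replicates 1, 3 and 4. In Old-GFP it was at 99.1, 132 and 35.6 CPM. The same library held the 12.6% of counts on lens fibre genes.

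Oxct1, an enzyme in the use of ketone bodies, was also singled out after its values were seen. It was at 191, 237 and 84.1 CPM in Old-GFP and at 125, 179, 138 and 197 CPM in Old-GSTA4. Its log2 fold change was -0.10 ± 0.34 (SE; edgeR adjusted p = 0.933).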
